A study of Mus musculus with 5 samples.

Results

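The miRNAs described here are 10 members of the imprinted Dlk1-Dio3 cluster of the mouse: mmu-miR-127-3p, mmu-miR-136-5p, mmu-miR-376a-3p, mmu-miR-376b-3p, mmu-miR-376c-3p, mmu-miR-379-5p, mmu-miR-410-3p, mmu-miR-411-5p, mmu-miR-434-3p and mmu-miR-541-5p, written without the mouse prefix below. They were taken by name from the miRNA field of every listed interaction. That rule uses no measured value, but the set was picked with earlier results of these data known. They are 10 of the 995 miRNA names in the tables and hold 33375 of the 3254259 listed interactions. The interactions come from Ago HITS-CLIP, in which Argonaute (Ago) proteins are crosslinked by UV light to the RNAs they hold, immunoprecipitated, and their miRNAs and target fragments sequenced together. Livers of C57BL/6 mice were used from embryos (e12.5, e15.5, e18.5, named by embryonic day), from pups on postnatal day 7 (P7) and from adults of 6 to 8 weeks, with 1 library per stage. Series of 5 values below always follow this order of age. All of these mice were untreated, and each liver homogenate was exposed 3 times to 0.2 J/cm2 of 254 nm light. Per the labels, the embryonic libraries were precipitated with Ago2 antibodies and the P7 and adult libraries with Ago2 and Ago1 antibodies, so for P7 against e18.5 and for adult against e12.5 the stage and the antibody cannot be told apart, while P7 and adult share both antibodies. With 1 library per stage there was no replicate check: no test of a stage was possible, and every p-value below compares 2 libraries.

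The Dlk1-Dio3 domain on chromosome 12 is expressed according to the parent of origin. The paternal copy expresses the protein-coding genes Dlk1, a transmembrane protein of fetal liver related to Notch ligands, Rtl1, a retrotransposon-derived gene, and Dio3, which inactivates thyroid hormone. The maternal copy expresses long noncoding RNAs, Meg3, Rian and Mirg, and the miRNAs processed from the same transcription. The members miR-127-3p, miR-434-3p and miR-136-5p lie antisense to the Rtl1 coding sequence on the other strand. The remaining members belong to the large array known as the miR-379/410 cluster, which starts upstream of Mirg and is known for a part in the metabolic adaptation of newborn mice. The domain is also known in fetal liver haematopoietic stem cells, where its miRNAs restrain PI3K-mTOR signalling.

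The mature sequences of 9 members were found in RefSeq (GRCm38.p6), and each was identical to the miRNA strand printed in the deposited duplexes. They are shown because the seed, bases 2 to 8 in capitals, decides which sites the tables list. They are given in their order along the plus strand of chromosome 12, with the position of the mature miRNA.
miR-127-3p (chr12:109592888-109592909): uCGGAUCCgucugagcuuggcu
miR-434-3p (chr12:109594565-109594586): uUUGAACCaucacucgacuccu
miR-136-5p (chr12:109595331-109595352): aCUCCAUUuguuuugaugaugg
miR-379-5p (chr12:109709065-109709085): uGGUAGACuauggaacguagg
miR-411-5p (chr12:109710190-109710210): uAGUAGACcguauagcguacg
miR-376b-3p (chr12:109723508-109723528): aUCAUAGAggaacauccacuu
miR-376a-3p (chr12:109723824-109723844): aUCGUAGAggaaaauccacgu
miR-541-5p (chr12:109742422-109742446): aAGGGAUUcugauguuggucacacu
miR-410-3p (chr12:109743764-109743784): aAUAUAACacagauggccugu
Among these 9, no seed was shared in full by any pair. The seeds of miR-379-5p and miR-411-5p were equal at 6 of 7 positions in 1 unbroken run of 6 bases, and those of miR-376a-3p and miR-376b-3p were equal at 6 positions with a longest run of 4. Over all 45 pairs of members and the 5 libraries, 0 listed sites of 1 member overlapped a site of another by 6 bases or more. That count was fixed by the sequences, since no pair shares bases 2 to 7, and is not a finding about the libraries. The seed of miR-127-3p holds the self-complementary run GGAUCC, and the tables list a miR-127-3p site inside the miR-127-3p hairpin itself (chr12:109592890-109592896) in all 5 libraries, where the reads are those of the miRNA.

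The abundance of a miRNA was read from the number that each interaction name carries. That number behaved as a read count: the highest cluster over a member's own mature sequence held between 86.0% and 100% of it in 56 pairs of miRNA and list, and lay within 2% of it in 50 of them. The other 6 were all miR-410-3p. Each embryonic table held 2 lists, one after the other. The study's methods mention biological replicates and its supplement a second e18.5 library, and whether the 2 lists are replicates is not stated there. Their numbers were added up, and the abundance of each miRNA was expressed in reads per 1000000 listed miRNA reads (rpm). The listed miRNA reads ranged from 7781484 (e18.5) to 25546696 (e12.5) per library. Between the 2 lists of a table the members differed by a median of 0.28 to 0.43 on the log2 scale, and by at most 1.17 (miR-410-3p at e18.5). Over all miRNAs averaging at least 10 rpm that median was 0.61 to 1.27.

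Summed over the 10 members, the share of all miRNA reads was 4.86%, 7.31%, 5.03%, 4.51% and 0.0476% in order of age. The P7 share was close to the lowest embryonic one, and the adult share was far below all 4 others. miR-136-5p alone made up between 53.3% (P7) and 68.5% (adult) of the members' reads. The number of members among the 100 most abundant miRNAs was 5, 6, 6 and 5 from e12.5 to P7, and 1, miR-136-5p, in the adult.

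**Figure D1:**
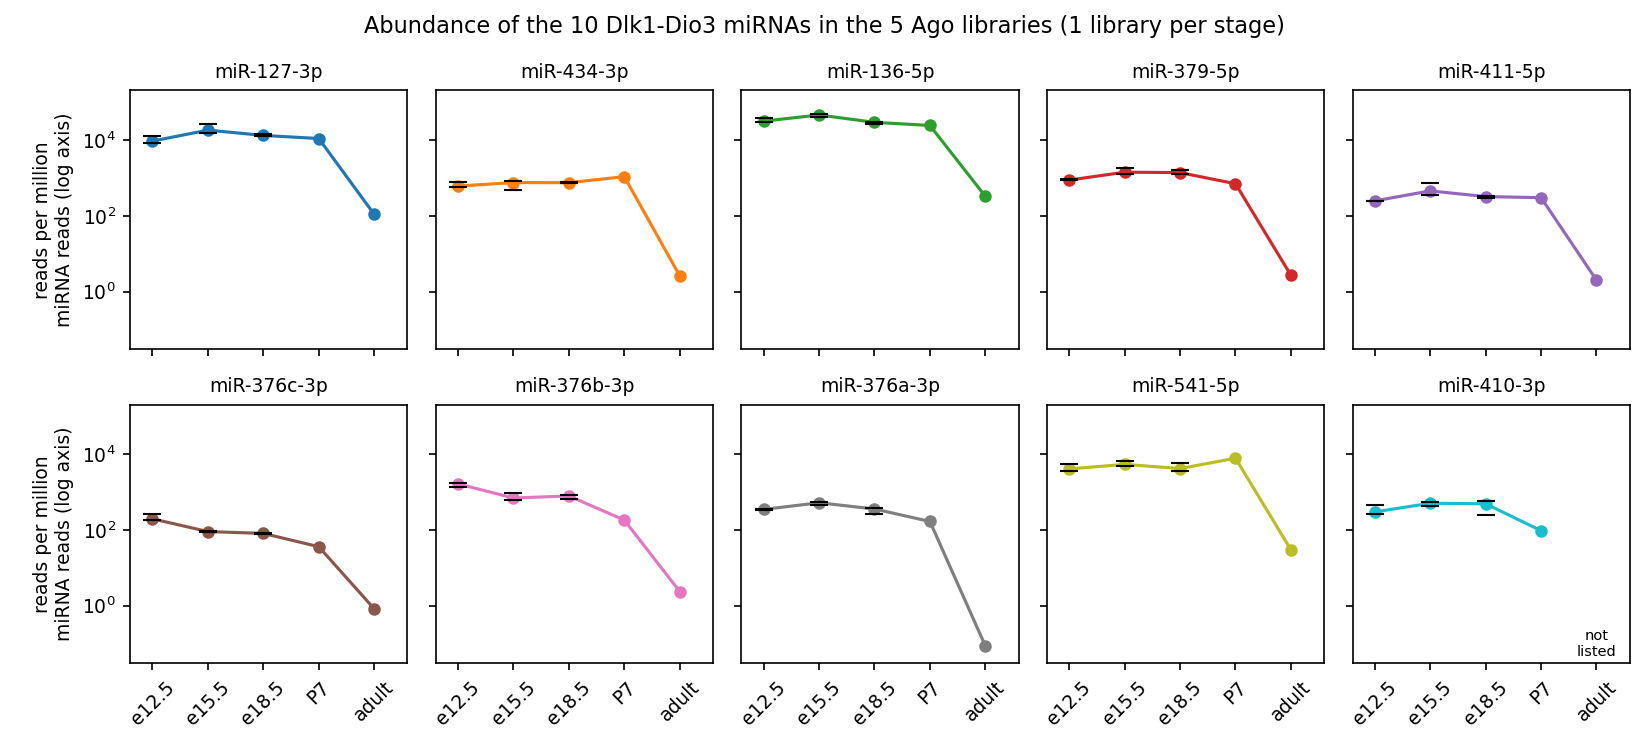
Abundance of each member, in rpm on a log axis, in the 5 libraries in order of age. Filled points are the library values and black dashes the 2 separate lists of the embryonic tables. Every member sits lowest in the adult library, where miR-410-3p was not listed, while P7 lies near the embryonic values for most members.

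Among the members antisense to Rtl1, miR-136-5p had 31107, 45342, 28940, 24016 and 326 rpm. It ranked between 3 and 7 of all miRNAs until P7 and 85 in the adult. miR-127-3p had 9287, 18073, 13091, 10861 and 110 rpm, so the adult library was about 99.0-fold below P7. miR-434-3p, the least abundant of these, had 604, 750, 745, 1072 and 2.62 rpm. Its highest value was that of P7, and its P7 level was 409-fold above the adult one.

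Of the miR-379/410 array, miR-541-5p was the most abundant member with 4018, 5282, 4104, 7663 and 29.7 rpm, and like miR-434-3p it was highest at P7. miR-379-5p, the first miRNA of the array, had 871, 1408, 1372, 698 and 2.71 rpm. miR-411-5p had 246, 453, 320, 300.0 and 2.01 rpm. In all 3 of these miRNAs the adult level was far below the other 4, which for miR-411-5p ranged from 246 to 453 rpm.

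The miR-376 members had lower values already at P7. miR-376b-3p had 1619, 688, 777, 180.0 and 2.36 rpm. miR-376c-3p was the rarest member until P7, with 194, 89.6, 80.2, 35.8 and 0.829 rpm. miR-376a-3p had 344, 515, 353 and 165 rpm and then 2 reads in the adult (0.0873 rpm), which puts P7 1896-fold above the adult with a counting interval from 525 to 15659. The last miRNA of the array, miR-410-3p, had 295, 499, 485 and 94.8 rpm and was not listed in the adult table. Against a floor of 3 reads per library its P7 level was at least 724-fold higher than the adult one and its e12.5 level at least 2256-fold higher. With whole liver as the sample, a smaller share of the cells that express these miRNAs and less miRNA per cell cannot be told apart.

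Few members were at least 4-fold lower at P7 than at e18.5, and all of them were at least 4-fold lower in the adult than at P7. A miRNA was called lower when its rpm, after adding 1 rpm, was at least 4-fold lower. At P7 against e18.5, 2 of 10 members were called, miR-376b-3p (log2 change -2.10) and miR-410-3p (-2.34), beside 13.1% of the 383 miRNAs averaging at least 10 rpm, and 0 of 10 were at least 4-fold higher, beside 7.83%. The members' median log2 change was -0.62, that of all 383 miRNAs -0.24, and the members ranged from -2.34 to 0.90. miR-434-3p (0.52) and miR-541-5p (0.90) had higher values at P7 than at e18.5. Scaled to total library reads, which moved the median of all miRNAs from -0.24 to 0.49, 0 members were called and their median was 0.13.

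Between P7 and adult, all 10 members were called lower, beside 39.2% of the 383 miRNAs, and 0 higher, beside 3.66%. Their median log2 change was -6.63 against -1.33 for all miRNAs, the smallest that of miR-376c-3p (-4.33) and the largest that of miR-434-3p (-8.21), and 6 of the 10 lay within the lowest 5% of all miRNAs. This comparison was chosen after the values were seen. In every comparison the 383 miRNAs include the 10 members and 55 other miRNAs of the locus. Of those 55, 53 were called lower between P7 and adult. In the adult against e12.5, all 10 members were called as well, beside 48.3% of all miRNAs, with a median of -7.21 against -1.87 and a range from -8.91 (miR-376b-3p) to -6.36 (miR-411-5p). Both comparisons share the adult library. Between e12.5 and e18.5, 0 of 10 members were called lower (6.53% of all miRNAs) and 0 higher (6.79%), and their median was 0.17.

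**Figure D2:**
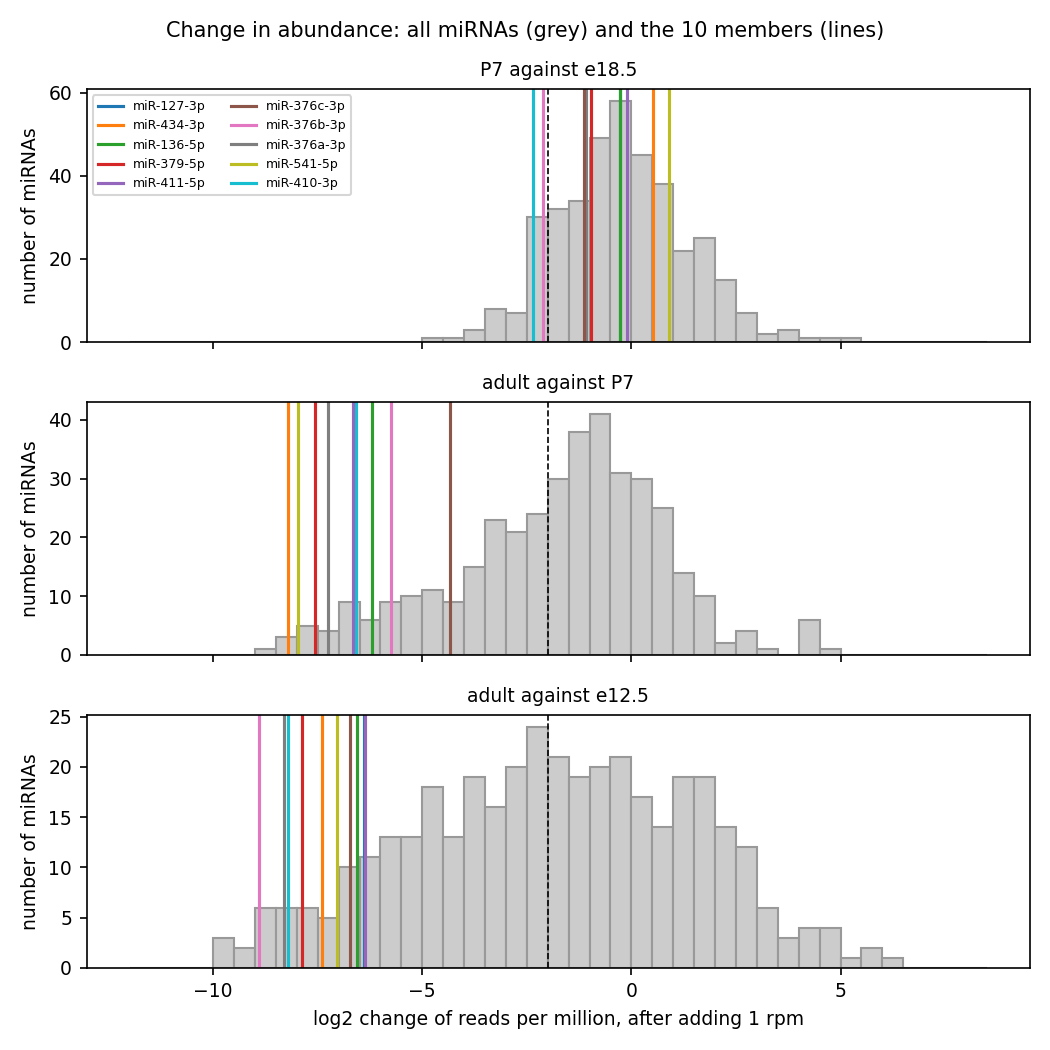
Histograms of the log2 change in abundance of the 383 miRNAs averaging at least 10 rpm, after adding 1 rpm, in 3 comparisons (panels), with 1 coloured line per member. The dashed line marks a 4-fold lower level. At P7 against e18.5 the members spread from -2.34 to 0.90 around the centre of the grey distribution, whereas in both adult comparisons all lines lie left of -4; the line of miR-410-3p rests on its absence from the adult table.

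Fetal liver is a blood-forming organ, so miRNAs known from its different cell types were set beside the members. Of the blood cell miRNAs, miR-144-3p and miR-451a, both of the red cell lineage, had log2 changes of -2.28 and -3.15 at P7 against e18.5 and of -0.36 and 1.27 in the adult against P7, so they were lower mainly across birth. miR-142a-3p, found across blood cells, changed by -1.43 and then -1.03, and miR-223-3p, of myeloid cells, by -1.68 and then -3.15. The hepatocyte miRNAs miR-122-5p, miR-192-5p and miR-194-5p were above their e12.5 level by 2.96, 2.77 and 3.94 in the adult, and endothelial miR-126a-3p by 3.07. Mesenchymal miR-199a-3p, miR-143-3p and miR-214-3p changed by -1.25, -0.53 and 0.04 in the adult against P7. None of these 11 miRNAs changed by as much as any member between P7 and adult, and their part in the members' change was not tested.

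Most other miRNAs of the locus were lower in the adult too. RefSeq places 58 miRNA hairpins with 114 mature miRNAs between Dlk1 and Dio3. Of those that are not members, 89 were in the tables and 55 averaged at least 10 rpm, and 53 of these 55 were at least 4-fold lower in the adult than at P7, with a median log2 change of -5.16. Against e12.5, 54 of 55 were lower in the adult, with a median of -6.03. At P7 against e18.5, 9 of 55 were at least 4-fold lower and 1 was higher, with a median of -0.83, beside 13.1% and 7.83% of all miRNAs. All miRNAs of the locus together held 7.29%, 9.42%, 6.73%, 5.82% and 0.0772% of the miRNA reads, most of which were reads of the members.

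The 5 most abundant of the others were miR-434-5p, miR-673-5p, miR-134-5p, miR-433-3p and miR-409-3p. miR-673-5p had 3791 rpm at e12.5, 1180 at P7 and 3.10 in the adult, and miR-134-5p had 1446, 798 and 1.702 rpm. A single one of the 55 was at least 4-fold higher at P7 than at e18.5. This was miR-1247-5p, which lies on the minus strand next to Dio3, 826 kb from the start of Dlk1. It had 37.8, 60.4, 71.5, 673 and 172 rpm, and it was also the 1 of 55 that was at least 4-fold higher in the adult than at e12.5 (log2 change 2.16). The other miRNA of the 55 that missed the call against P7 was miR-412-5p, with 1.74 rpm at P7 and none listed in the adult.

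**Figure D3:**
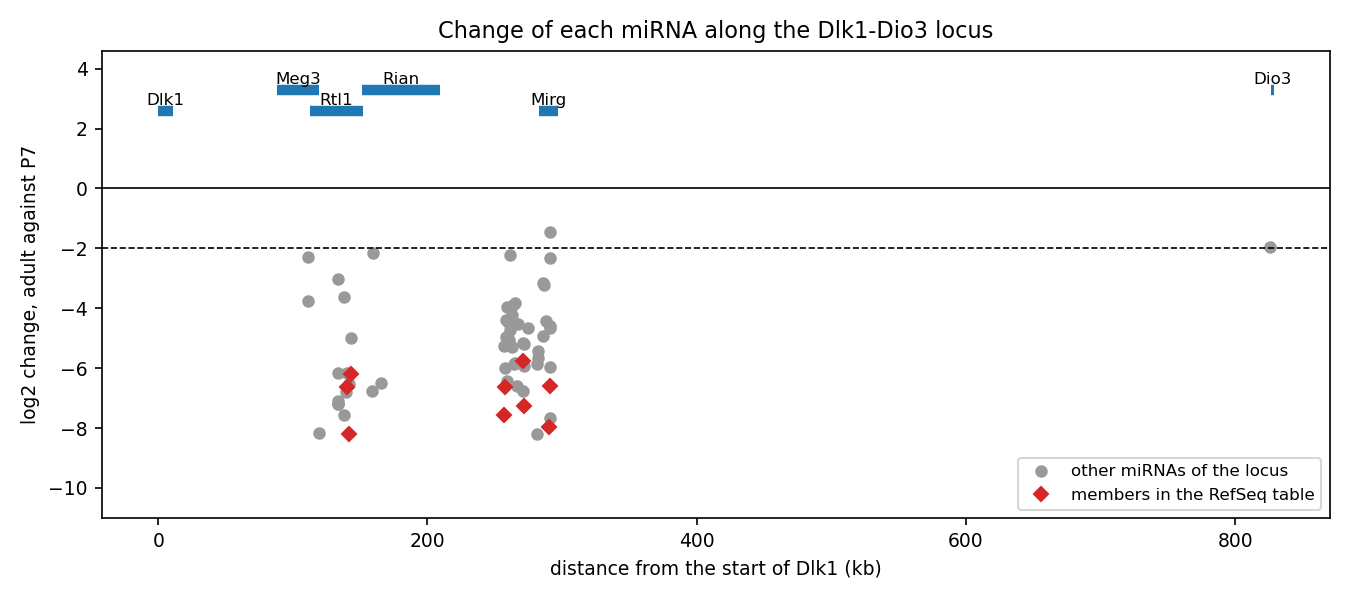
Log2 change in abundance in the adult against P7 for the miRNAs of the locus that averaged at least 10 rpm, by distance in kb from the start of Dlk1. Red diamonds are the 9 members placed by RefSeq, grey circles the other miRNAs, and blue bars the RefSeq genes. All members lie between -5.75 and -8.21, and the single point beside Dio3 is miR-1247-5p.

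The 2 arms of a hairpin did not always keep their order. For miR-127, miR-136, miR-541 and miR-376c the member was the major arm wherever both arms were listed, by 30.8-fold or more. For miR-434 the other arm, miR-434-5p, exceeded the member in all 5 libraries, with 1922 rpm against 604 at e12.5 and 26.1 against 2.62 in the adult. For miR-411 it did so in 4 of 5, e15.5 being the exception. For miR-376b the member was 6.35-fold above miR-376b-5p at e12.5, 4.65-fold at e15.5 and 2.22-fold at e18.5, and the order was turned at P7, with 180 rpm of the member against 779 rpm of the other arm. For miR-379 and miR-376a the order turned in the adult only, with 2.71 rpm of miR-379-5p against 6.33 rpm of miR-379-3p and 0.0873 rpm of miR-376a-3p against 0.698 rpm of miR-376a-5p. No other arm of miR-410 was listed.

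The tables also list the Ago clusters, regions of at least 5 overlapping reads, that hold a match to a miRNA seed, and such a match was counted as a site of the miRNA. A listed site is a seed match under an Ago cluster and does not show which miRNA guided Ago there. The 4 kinds of match are the 6mer (bases 2 to 7), the 7mer-A1 (a 6mer followed by A), the 7mer-m8 (bases 2 to 8) and the 8mer (7mer-m8 followed by A). The members had 10500, 4834, 4301, 6633 and 4659 distinct sites. Those in 3′UTRs, the region where miRNA sites are known to act most, numbered 2068, 1039, 800, 1339 and 734, in 1606, 862, 716, 1144 and 650 genes.

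Coding sequence (CDS) held more of the members' sites than 3′UTRs in every library. Its share was 42.2%, 48.3%, 48.1%, 52.6% and 58.5%, against 34.6%, 39.2%, 40.3%, 44.8% and 52.8% for the sites of all miRNAs. The 3′UTR share was 19.7%, 21.5%, 18.6%, 20.2% and 15.8%, below that of all miRNAs in each library (23.3%, 25.8%, 24.4%, 25.6% and 20.01%). The members differed among themselves. miR-376a-3p had 71.2% of its sites in CDS at e12.5 and 81.8% in the adult, whereas miR-410-3p, with an AU-rich seed, had 43.7% in 3′UTRs and 28.4% in CDS at e12.5.

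The number of sites, which are seed matches listed whatever the abundance of a listed miRNA, was not in the order of abundance. At e12.5 miR-136-5p had 502 3′UTR sites, and miR-127-3p, the next in abundance, had 81. miR-376b-3p, at 1619 rpm against 9287 of miR-127-3p, had 300 of them. miR-411-5p with 246 rpm had 243 and miR-376a-3p with 344 rpm had 52.

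Seed matches of a listed miRNA are listed whatever its abundance: miR-376a-3p, with 2 reads in the adult, had 176 sites there. The share of 3′UTR clusters that held a site of any member therefore cannot decide whether binding followed abundance. It was 5.11% in the youngest library (2017 of 39452 clusters, 95% Wilson interval 4.90 to 5.33), then 5.57% (5.25 to 5.91), 4.85% (4.53 to 5.20) and 4.45% (4.22 to 4.69), and 4.48% in the adult (713 of 15914, 4.17 to 4.81). These intervals cover counting error only. Between P7 and adult, where the members' summed miRNA reads went from 4.51% to 0.0476%, the intervals of the site share overlapped.

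Each member was then compared between libraries by Fisher's exact test on 3′UTR clusters with and without its site, adjusted by Benjamini-Hochberg over all miRNAs with at least 50 such clusters in the 2 libraries. At P7 against e18.5, 0 of 10 members had a lower share and 0 a higher one at an adjusted p under 0.05, beside 10.4% and 5.56% of 432 miRNAs. At an unadjusted p under 0.05 there was 1, miR-410-3p, whose share was 0.211% at e18.5 and 0.111% at P7 (log2 odds ratio -0.92, Fisher's exact test, adjusted p = 0.0583). For adult against P7, 0 of 9 testable members were lower and 0 higher, beside 3.05% and 13.2% of 491 miRNAs. The 2 with an unadjusted p under 0.05 were miR-376b-3p, at 0.665% and 0.509% (adjusted p = 0.143), and miR-379-5p, at 0.655% and 0.873% (adjusted p = 0.0623), both by Fisher's exact test. miR-410-3p could not be tested there because the adult table lists none of its sites.

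For adult against e12.5, 2 of 9 members had a lower share, beside 22% of 404 miRNAs, and 1 had a higher share, beside 17.8%. miR-136-5p went from 1.27% (502 clusters) to 0.917% (146 clusters), with a log2 odds ratio of -0.47 and an adjusted p of 0.00162 by Fisher's exact test. miR-376b-3p went from 0.760% to 0.509% (log2 odds ratio -0.58, adjusted p = 0.00366). miR-379-5p went the other way, from 0.507% to 0.873% (0.79, adjusted p = 8.2e-06), while its abundance went from 871 to 2.71 rpm. With sites of at least 7 bases alone, 0 members had a higher share. The shares of the other 6 did not pass the test. Of these, 2 had an unadjusted p under 0.05 by Fisher's exact test, miR-434-3p, at 0.477% and 0.333% (adjusted p = 0.0533), and miR-376c-3p, at 0.520% and 0.383% (adjusted p = 0.0763). Over the 9, the members' median log2 odds ratio was -0.36 beside -0.06 for all 404 miRNAs. Counted over clusters of every region, 2 members were lower and 4 higher, beside 19.4% and 49.4% of all miRNAs, and counted as genes in place of clusters, 8 were lower and 0 higher beside 83.7% and 6.44% of all miRNAs. The log2 odds ratio of miR-376b-3p turned to 0.13 over clusters of every region.

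**Figure D4:**
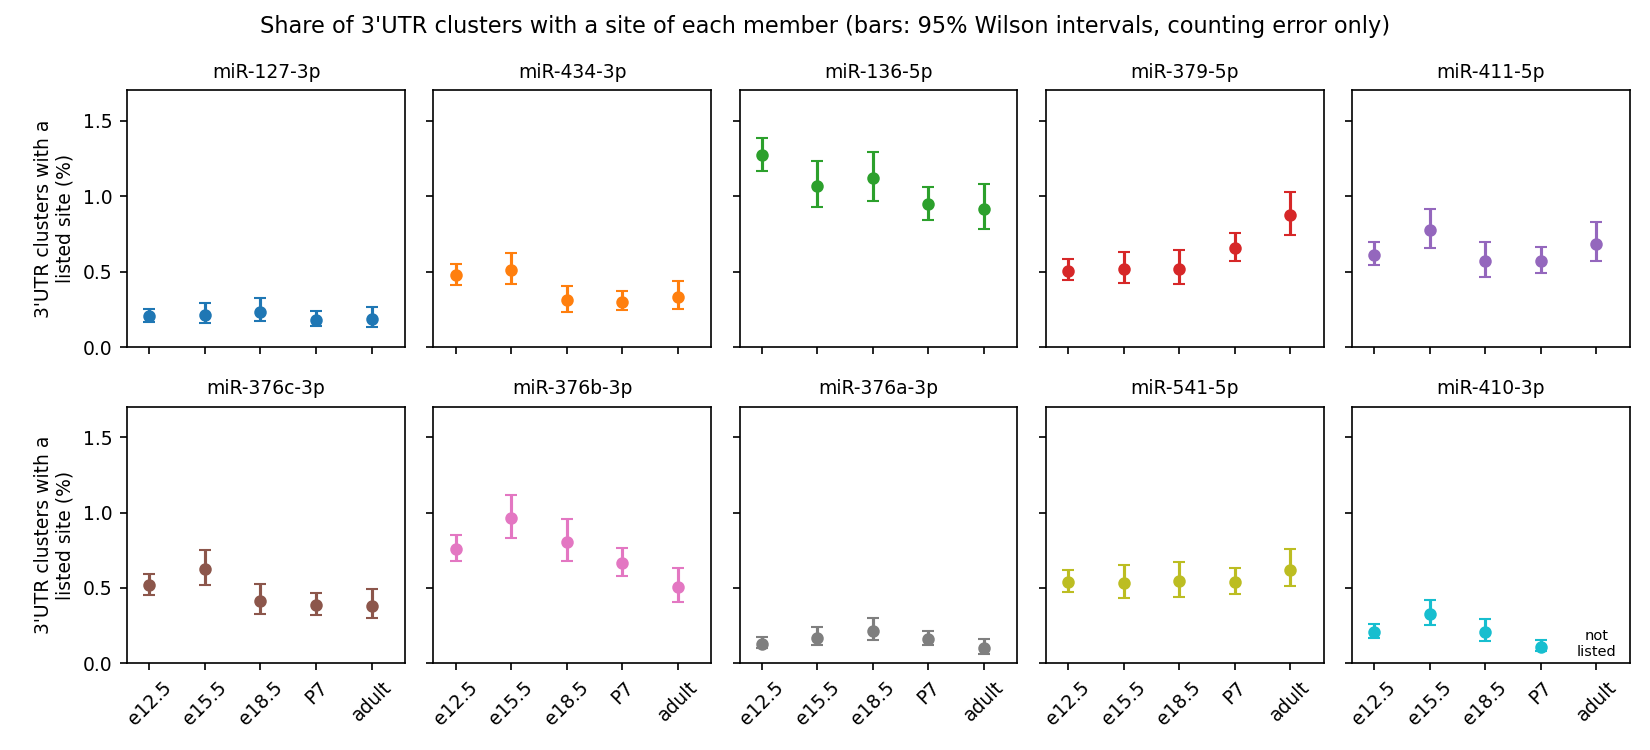
Percentage of 3′UTR clusters that hold a listed site of each member in the 5 libraries, with 95% Wilson intervals that cover counting error only. Shares lie between 0.101% and 1.27%; miR-136-5p and miR-376b-3p are lower in the adult than at e12.5, miR-379-5p is higher, and miR-410-3p was not listed in the adult.

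Pooled over the members, the shortest seed matches were a larger share in the adult library than in the others. Over the 9 members listed in all libraries, 6mers, the shortest match, were 51.0%, 50.6% and 51.3% of the 3′UTR sites of the embryonic libraries. They were 53.9% at P7 (704 of 1306, Wilson interval 51.2 to 56.6) and 61.0% in the adult (448 of 734, 57.5 to 64.5). Over all miRNAs the 6mer share was 51.5% at P7 and 51.1% in the adult. The 8mers, the longest match, were 9.17%, 7.87%, 9.53% and 7.89% of the members' sites until P7 and 5.18% in the adult (38 sites, 3.79 to 7.03), against 9.58% for all miRNAs there. Clusters with a member site of at least 7 matched bases were 2.44%, 2.64%, 2.30%, 2.02% (1.87 to 2.19) and 1.77% (1.58 to 1.99) of the 3′UTR clusters. The members did not all move alike. From P7 to adult the 6mer share was higher for 7 of the 9 and lower for miR-136-5p (46.1% and 45.9%) and miR-376b-3p (43.7% and 40.7%), and the 8mer share was higher for miR-136-5p (9.29% and 13.0%), miR-379-5p and miR-541-5p. These shares were not tested between libraries.

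The members' sites could share their cluster with a site of an abundant miRNA, and the share that did was highest in the adult. Of the 3′UTR clusters with a member site, 13.6% at e12.5 held a match of at least 7 bases to 1 of the 20 most abundant other miRNAs of that library. The later shares were 15.8%, 15.8%, 18.2% and 26.6% (190 of 713, Wilson interval 23.5 to 30.0). For clusters with a member site of at least 7 bases the shares were 10.3%, 13.2%, 12.4%, 14.7% and 23.0% (65 of 282). Over all 3′UTR clusters it was 9.83%, 13.5%, 14.2%, 12.46% and 16.1% (15.6 to 16.7).

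**Figure D5:**
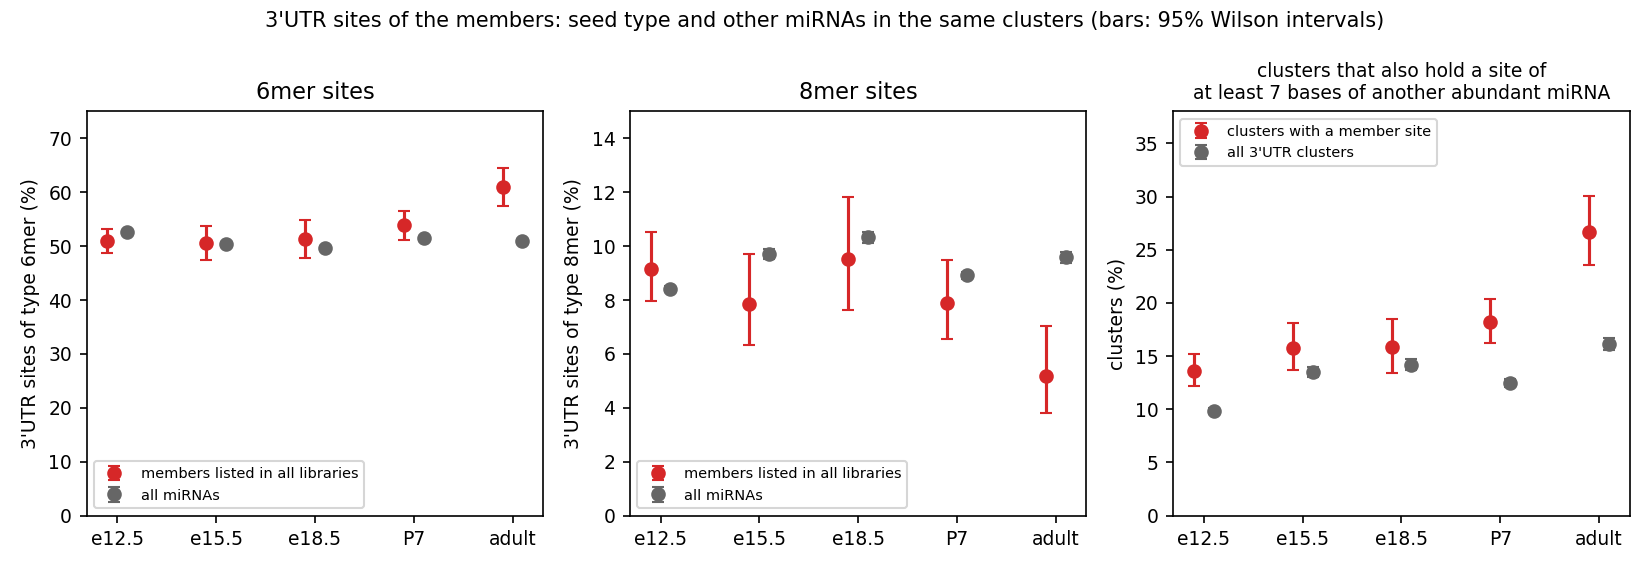
Percentage of 3′UTR sites that are 6mers (left) or 8mers (middle), for the 9 members listed in all libraries (red) and for all miRNAs (grey), and percentage of 3′UTR clusters that hold a match of at least 7 bases to 1 of the 20 most abundant other miRNAs (right), for clusters with a member site (red) and all clusters (grey). Bars are 95% Wilson intervals. In the adult the red points stand apart from the grey ones in all 3 panels, at 61.0% against 51.1%, 5.18% against 9.58% and 26.6% against 16.1%.

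Few sites recurred. Of 4259 distinct 3′UTR sites of the members, 3118 were listed in 1 library and 31 in all 5. Of the sites of at least 7 bases listed at e18.5, 32.4% were listed again at P7 (129 of 398, Wilson interval 28.0 to 37.2), against 41.4% for all miRNAs. From P7 to adult, over the 9 members listed in both, the share was 15.4% (93 of 602, 12.8 to 18.6) against 20.7%, and from e12.5 to adult, over the same 9, 5.86% (57 of 972, 4.55 to 7.52) against 11.9%. The share was below that of all miRNAs in each of the 3 comparisons, the one across birth included. Among single members it was highest from P7 to adult for miR-379-5p, with 17 of 58 sites, and among those listed in the adult it was lowest for miR-376a-3p, with 3 of 28.

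By gene, 2974 genes had a member 3′UTR site in some library and 63 had one in all 5. That count was 19 for sites of at least 7 bases and 30 for the same site in all 5 libraries. No such count is given for the genes of all miRNAs, so whether this recurrence was low for the members is not shown. A single member was listed for 2218 of the 2974 genes. The largest number of members on 1 gene was 6, for Ank1, which encodes the red cell membrane protein ankyrin, in 4 libraries, and for Lrrc58 and Gm20716 in all 5.

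The sites in most libraries are given as reads per 1000000 summed cluster reads of the library (cluster rpm). The letters of the target that match the seed are in capitals, including the A that follows a 7mer-A1 or 8mer. The summed reads include clusters over miRNAs, such as 593876 reads over miR-136-5p at e12.5. Listed miRNA reads were 25546696 beside 44867326 summed cluster reads at e12.5, and 22917686 beside 24885228 in the adult. Series in cluster rpm are therefore not scaled to the depth of target reads. The target strand is read 5′ to 3′ from the deposited duplex. They are shown because the changes described next are those of these sites. Positions are those of the listed seed window (mm10). Matches to other miRNAs in the same cluster are those of at least 7 bases to any of the 32 miRNAs outside the members that were among the 20 most abundant of at least 1 library.
Med13l, miR-434-3p 7mer-m8 (chr5:118765297-118765303, plus strand): agcccagtgctGGTTCAAt
Tmbim6, miR-376b-3p 7mer-m8 (chr15:99408585-99408591, plus strand): acaggtgtcgtgtTCTATGAt
Il6st, miR-136-5p 8mer (chr13:112504364-112504370, plus strand): tttgaatctgttggAATGGAGA
Gcgr, miR-136-5p 7mer-A1 (chr11:120538876-120538882, plus strand): taggggttggatatgATGGAGA
Klhl25, miR-127-3p 8mer (chr7:75873610-75873616, plus strand): gagctcagaaagaaGGATCCGA
Tnrc6b, miR-410-3p 7mer-m8 (chr15:80929829-80929835, plus strand): acttttttcatGTTATATg
Igf2, miR-376c-3p 7mer-m8 (chr7:142652767-142652773, minus strand): gctgcttattggcTCTATGTg
Slc4a1, miR-434-3p 7mer-m8 (chr11:102349474-102349480, minus strand): acacagagtgaactGGTTCAAg
Cfb, miR-541-5p 7mer-A1 (chr17:34857028-34857034, minus strand): tctgcacaggaggggtggATCCCTA
Crat, miR-541-5p 7mer-m8 (chr2:30413134-30413140, minus strand): ttcagcAATCCCTg

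For the miRNAs antisense to Rtl1, a miR-434-3p site lay in Med13l, a subunit of the Mediator kinase module. By cluster rpm this site was lower in each older library. It had 68.2, 26.2, 11, 3.45 and 1.08 cluster rpm, and its sequence was fully conserved by the deposited score. A miR-434-3p site in Arid4b, a chromatin regulator, had 3.12, 8.90, 1.38 and 0.606 and was not listed in the adult. The miR-136-5p sites in Il6st, the shared receptor subunit of the interleukin-6 family, and in Gcgr, the glucagon receptor of hepatocytes, did not follow the miRNA. The Il6st 8mer was not listed at e15.5 and had 3.14, 12.1, 4.73 and 5.42 in the other libraries. The Gcgr site had 0.513, 3.63, 15.8, 4.42 and 2.25 cluster rpm. For miR-127-3p, Klhl25, an adaptor of ubiquitin ligases, had 3.43, 3.45, 32.4 and 3.88 and Zc3h4 had 2.54, 22.9, 0.999 and 2, and neither site was listed in the adult. The miR-127-3p site in Tmx3, an enzyme of protein folding, was listed in all 5, with 3.86, 3.21, 0.615, 0.849 and 1.21.

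For the miR-376 members, the conserved miR-376b-3p site in Tmbim6, an inhibitor of cell death at the endoplasmic reticulum, had 9.85, 45.9, 16.9, 5.03 and 7.47 cluster rpm. The site in Hspa9, the mitochondrial HSP70, had 30.8, 68.9, 37.1 and 9.21 and none listed in the adult. H1f0, a linker histone, had 12, 9.08, 8.46, 11.5 and 3.50, in a cluster that also held a miR-30a-5p match in all 5 libraries. The miR-376c-3p 8mer in Cldn1, a tight junction protein, had 3.08, 10.05, 50.5, 13.4 and 0.924. The miR-376a-3p 8mer in Gabarap, an autophagy protein, had 1.11, 3.995, 17.8 and 14 with none listed in the adult, while the 7mer-m8 in Slc25a3, the mitochondrial phosphate carrier, was listed in all 5 with 4.64, 3.69, 0.769, 1.21 and 3.86, in a cluster that also held a miR-27b-3p match in all 5 and a miR-142a-3p match at e12.5, e15.5 and in the adult. The Gabarap cluster held a miR-27b-3p match in the 3 embryonic libraries.

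For the remaining array, the miR-410-3p site in Tnrc6b, whose protein is itself a partner of Ago in silencing, had 2.27, 7.63, 8.23 and 2.18 cluster rpm until P7, with a miR-30a-3p match in its cluster at e12.5 and P7, and the next 2 genes of this miRNA, Atad1 and Sri, were listed in the embryonic libraries only. The miR-379-5p site in Tnfaip2 had 17.9, 38, 2.23 and 1.52 and none listed in the adult. The miR-379-5p site in Hmbox1 and the miR-411-5p site in Map3k1 were listed in all 5 libraries, and both clusters held let-7 matches in all 5. Tm7sf2, of sterol synthesis, had a miR-411-5p site at 1.96, 2.54, 0.692, 2.67 and 1.37 with no match to an abundant miRNA. Chosen by the same rule, the sites of Slc35b4 (miR-136-5p) and Myh9 (miR-411-5p) were listed in all 5 libraries, the former beside miR-30 matches in all but e15.5. Those of Arl6ip1 (miR-376a-3p), Ppp1r15b and Zfp367 (miR-376c-3p) and H3f3b (miR-379-5p) were listed in all but the adult, that of Herpud1 (miR-434-3p) in all but P7, beside a miR-451a match at e12.5 and e18.5, and that of Arrb1 (miR-541-5p) in embryos only.

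Some sites of miR-541-5p had more reads after birth than before. The miR-541-5p site in Cfb, which encodes complement factor B and at this position also carries the symbol Gm20547, was not listed at e12.5 and had 3.27, 96.9, 211 and 244 cluster rpm in the other 4. Its cluster also held a match of at least 7 bases to miR-122-5p in all 4 of these libraries and to miR-192-5p in the last 3. The miR-541-5p site in Crat, carnitine acetyltransferase, had 1.08 at e18.5, 47.1 at P7 and 4.54 in the adult, and its cluster held let-7 matches in these 3 libraries. What part of the reads belongs to which miRNA was not tested.

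Sites of at least 7 bases that were listed in the embryonic libraries and not later lay in genes of several kinds. The miR-434-3p site in Slc4a1, the band 3 anion exchanger of red cells, had 14.7, 5.81 and 1.92 cluster rpm at e12.5, e15.5 and e18.5, with a miR-122-5p match in its cluster at e12.5. The miR-376c-3p site in Igf2, the imprinted fetal growth factor, had 3.79, 12.4 and 6.07, and its cluster held a miR-16-5p match in all 3. The miR-376b-3p 8mer in Zbtb7a, a repressor of fetal globin, had 1.58, 13.4 and 13.7, with miR-30 matches in the cluster at e18.5. The miR-376a-3p site in Slc16a6 had 27.0 and 8.47 at e12.5 and e15.5 and was not listed at e18.5, and its clusters held matches to miR-20a-5p, miR-30a-5p and miR-93-5p in both. The miR-379-5p 8mer in Sertad3 was listed at e12.5 alone, with 83.3 cluster rpm, in a cluster that also held a miR-92a-3p match.

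In CDS, where more sites lay than in 3′UTRs, the leading gene was listed in all 5 libraries for 9 of the 10 members. The miR-136-5p site in Fth1, ferritin heavy chain, had 158, 165, 85.9, 11.8 and 5.47 cluster rpm, with a miR-223-3p match in the cluster in all 5 libraries. The miR-379-5p site in Hbb-bs, an adult beta globin, had 65.0, 81.8, 60.3, 26.7 and 1.77, in a gene with near-identical copies, so its reads may be shared with them, and its cluster held a miR-27b-3p match in all 5 libraries. In Fgg, the fibrinogen gamma chain, a miR-376b-3p 8mer had 14.3, 74.8, 186, 2.48 and 7.27 and a miR-127-3p site 2.23, 13.1, 33.5, 5.58 and 8.56. The miR-434-3p site in Ttr, transthyretin, had 35.2, 105, 438, 347 and 79.6, and the miR-541-5p site in Esd was highest in the adult, at 9.98, 35.5, 13.1, 9.94 and 61.3. In Apob, which encodes the apolipoprotein B of liver lipoproteins, a miR-411-5p site had 2.74, 1.82, 32, 15.6 and 10.1. The miR-376a-3p site in Klhdc3 had 13.5, 4.54, 14.5, 0.849 and 1.41. The miR-376c-3p site in Supt5, a transcription elongation factor, had 0.936 at e12.5, was not listed at e15.5, where another site of the gene was, and had 3.84, 4.30 and 2.21 in the other 3. For miR-410-3p the leading gene was Huwe1, a ubiquitin ligase, at 3.90 and 3.54 in the e12.5 and e18.5 libraries alone. Levels of these transcripts were not measured here, so the level of a target and its occupancy cannot be told apart.

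The 4 gene lists counted were genes of the locus, PI3K-mTOR signalling, glucose output and glycogen, and haematopoietic regulators. Of the 22 haematopoietic regulators with any 3′UTR site at e12.5, 5 had a 3′UTR member site (22.7%, beside 19.1% of all genes) and 4 one of at least 7 bases, Gata1, Ikzf1, Myb and Tal1 (18.2% beside 10.6%). Tal1, a master regulator of blood formation, had a miR-136-5p site with 188 and 23 reads in the first 2 libraries, and Ikzf1, a lymphoid regulator, a miR-434-3p site with 26 and 14 reads. Myb had an 8mer of miR-136-5p with 10 reads at e12.5. In the later libraries 3 of 16, 0 of 15, 2 of 17 and 0 of 11 of these regulators had a 3′UTR member site (18.8%, 0%, 11.8% and 0%, beside 14.5%, 11.98%, 14.1% and 11.3% of all genes), and at P7 Gata2 had one of at least 7 bases.

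Of the PI3K-mTOR genes, between 2 of 18 (adult) and 6 of 23 (e18.5) had a 3′UTR member site, 11.1% and 26.1% beside 11.3% and 11.98% of all genes. Among those with a 3′UTR site of at least 7 bases were Rictor at e12.5, Foxo3 and Rptor at e18.5, and Rps6kb1 and Rptor at P7, each with 5 to 82 reads. Rptor, a scaffold of the mTOR kinase, had a miR-541-5p site with 5 reads at e18.5 and a miR-376c-3p site with 9 at P7. In the coding sequence of Pik3ca, the catalytic PI3K subunit, a cluster of 217 reads at e15.5 and 114 at e18.5 held sites of 3 members side by side, an 8mer of miR-136-5p (chr3:32439845-32439851), an 8mer of miR-376a-3p (chr3:32439857-32439863) and a 7mer-m8 of miR-541-5p (chr3:32439864-32439870). Of the glucose and glycogen genes, 1 of 9, 0 of 8, 3 of 11, 2 of 13 and 3 of 12 had a 3′UTR member site (11.1%, 0%, 27.3%, 15.4% and 25%, beside 19.1%, 14.5%, 11.98%, 14.1% and 11.3% of all genes). The 1 of these sites with at least 7 bases lay in Ppargc1a, the coactivator of gluconeogenic genes, for miR-434-3p at e12.5 with 29 reads (11.1% of the genes beside 10.6% of all genes). In CDS, matches of at least 7 bases lay in Gys2, Pck1, Pcx, G6pc, Pygl, Ugp2 and Ppp1r3b. By library they were in 3 of 14, 1 of 11, 3 of 17, 3 of 17 and 5 of 18 of the list's genes with any CDS site (21.4%, 9.09%, 17.6%, 17.6% and 27.8%), beside 15.98%, 11.8%, 10.46%, 12.1% and 10.3% of all such genes. Against the same background, CDS matches of at least 7 bases were in 4 of 26, 6 of 22, 3 of 25, 3 of 26 and 3 of 24 of the PI3K-mTOR genes, a share between 11.5% (P7) and 27.3% (e15.5). For the haematopoietic regulators they were in 6 of 24, 2 of 20, 2 of 19, 1 of 22 and 2 of 13, between 4.55% (P7) and 25% (e12.5). Gys2, the liver glycogen synthase, had a miR-376b-3p site in every library, with 262, 30, 18, 65 and 8 reads. Pck1, an enzyme of gluconeogenesis, had an 8mer of miR-376b-3p with 42 reads at P7 and 82 in the adult, a site not listed in the embryonic libraries. These lists are small, and a difference of 1 gene moves their shares by several percent.

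The locus itself was bound. The libraries held 208193, 81121, 76948, 124781 and 81194 clusters in all, the embryonic ones summed over 2 lists, and the counts here are not scaled to these. Dlk1 had 22, 16, 12, 6 and 0 clusters. Within its coding sequence miR-136-5p had a 7mer-m8 site (chr12:109455554-109455560) with 334, 96 and 16 reads in the 3 embryonic libraries, not listed later, and at e12.5 this was the highest Dlk1 cluster. Meg3 had 56, 7, 4, 13 and 0 clusters, Rian 43, 25, 13, 12 and 2, and Mirg 26, 15, 21, 22 and 7, counts that include the clusters of the miRNAs these transcripts carry. Rtl1 had 5, 3, 1, 1 and 0, and Dio3 had 0 in every library. Opposite the miR-434 hairpin, an 8mer of miR-434-3p in the Rtl1 coding sequence (chr12:109594518-109594524, minus strand) was listed at e12.5 with 17 reads and a duplex energy of -22.2 kcal/mol. A minus-strand cluster of 8 reads opposite the miR-376b hairpin (chr12:109723509-109723515) was listed at e12.5 as a miR-376b-3p site at -30.5 kcal/mol.

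Some member sites in the locus lay on miRNAs of it, where the reads are again those of a miRNA. A miR-410-3p match lay in miR-369-5p, with up to 13387 reads at e12.5, a miR-376b-3p match in miR-376a-5p, with up to 1583, and a miR-411-5p match in miR-1197-3p, with up to 154 at e15.5. Beside the Dlk1 site, others overlapped no hairpin. In the noncoding transcripts, a miR-541-5p 6mer in Meg3 had 148 reads at e12.5, a miR-136-5p 6mer in Rian 122 at e15.5, a miR-379-5p 6mer in Mirg 32 at P7 and a miR-434-3p 8mer in Meg3 18 at P7. Intergenic positions held further ones, the highest a miR-127-3p 7mer-m8 with up to 157 reads at e12.5.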

How the data were processed

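Ago HITS-CLIP libraries of 5 liver stages, 1 per stage, were used as deposited by the authors. Reads were mapped with Bowtie to the mouse genome and miRNA precursors, grouped into clusters, annotated and scanned for seed matches, and the submitters' processing notes name both mm9 and mm10. The positions match mm10, since the clusters of the members lie on their RefSeq hairpins. Versions of the upstream tools are not given in the sources used here. The deposited tables list 1 seed match per row. Cluster height, the signal the authors deposited, is the peak read number of each cluster, not scaled to depth and never under 5. The deposited mfe score is the free energy of the predicted duplex, and the deposited conservation score runs from 0 to 1. The number in each interaction name is not explained in the tables.

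The study's methods mention biological replicates, but the labels give 1 sample per stage. Each embryonic table holds 2 lists, found where the order of the miRNA identifiers starts again, and they were not treated as replicates. Abundance was the number in the name, the highest over gene copies of a miRNA, summed over lists and scaled to all miRNA reads. Depth ranged from 76948 to 208193 clusters per library. Site shares of 3′UTR clusters were compared by two-sided Fisher's exact tests, which compare libraries and not stages, adjusted by Benjamini-Hochberg over all miRNAs with at least 50 clusters. Site reads were scaled to the summed cluster reads of the library (13008703 to 44867326), which include clusters over miRNAs. Wilson intervals have a level of 95%, and reads without molecular identifiers are not independent molecules.

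For each member the text names genes with a 3′UTR match of at least 7 bases. They are the 3 genes in the most libraries, with ties broken by scaled reads, the 1 gene with the most reads among sites found in embryos only, and the 1 leading CDS gene. Genes of the 4 lists are named where they have such a match. Some results that this rule would name are not reported here. Pik3ca was picked after its values were seen. The members, lists and comparisons were chosen with earlier results of these data known, and adult against P7 after its values were seen. Python 3.11.15, numpy 2.4.6, pandas 2.3.3, scipy 1.17.1 and matplotlib 3.10.9 were used, and the steps were tested on simulated data. The alternatives were other pseudocounts, thresholds, scalings, seed types, read minimums, regions, units of counting and single lists.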

Additional observations from a re-analysis of the deposited data

How the results depend on the processing

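In the adult against P7 and against e12.5, all 10 members stayed at least 4-fold lower in every alternative run (at least 2-fold or 8-fold where the threshold was the alternative), beside 24.8% to 58.7% of all miRNAs. At P7 against e18.5, where 2 members were called, 0 were called with the second list alone (4.18% of all miRNAs) and 0 with scaling to total library reads (3.39%). The e18.5 total of that scaling leaves out the study's second e18.5 library and may be too small. At a 2-fold threshold 4 were called (30.3%), and 0 at an 8-fold threshold (3.39%). Of the single-member abundance values, 212 kept their side of the threshold, 2 passed it and 6 no longer did.

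The counts of members with a changed 3′UTR site share were less settled, and are given with the share of all miRNAs called the same way. At P7 against e18.5 (0 lower, 0 higher), clusters of all regions gave 3 lower (21.9%) and 1 higher (22.8%), the second list alone gave 1 lower (13.5%), clusters of at least 20 reads gave 1 higher (73 of 394) and counting genes gave 2 higher (46.8%). In the adult against e12.5 (2 lower, 1 higher), sites of at least 7 bases gave 0 higher (15.2%), clusters of at least 20 reads 1 lower (13.5%) and 2 higher (29.7%), counting genes 8 lower (83.7%) and 0 higher (6.44%), all regions 4 higher (49.4%) and the first list alone 1 lower (17.1%). In the adult against P7 (0 and 0), clusters of at least 10 reads gave 1 higher (10.7%), counting genes 3 lower (32.2%), and all regions 1 lower (9.9%) and 5 higher (52.1%). Counting genes also moved the median of all miRNAs, from -0.06 to -0.81 in the adult against e12.5.

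The log2 odds ratio changed sign in 7 cases. With genes counted it was 0.46 for miR-411-5p at P7 against e18.5, and -0.55 for miR-411-5p and -0.54 for miR-541-5p in the adult against e12.5. With all regions it was 0.30 for miR-127-3p and 0.13 for miR-376b-3p in the adult against e12.5, and 0.17 for miR-136-5p and 0.28 for miR-376c-3p in the adult against P7. The cause was not tested. The 63 genes with a site in all 5 libraries became 19 with sites of at least 7 bases, 41 and 29 with clusters of at least 10 and 20 reads, 13 with the first list alone and 30 with the same position required.

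No paired analysis was possible because each stage has 1 library. Members near the lowest counts, 2 reads of miR-376a-3p and 19 of miR-376c-3p in the adult, limit the precision of their folds.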
